A study of Mus musculus with 7 samples.

Results

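The cell cycle and proliferation genes described here are 40 protein-coding genes, 15 that act in S phase, when DNA is copied, and 25 that act in mitosis, when the copies are divided between daughter cells. They are 40 of the 21899 genes counted in RNA-seq of isolated pancreatic islets from F2 male mice. The genes were chosen by name from a list drawn up with the log2 ratios of these same libraries already known, so the direction of the list as a whole is a description of these libraries and is no independent evidence.

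The study asked whether exposure of a pregnant female to excess androgen alters β-cell function in later generations of males. Wild-type C57BL/6J dams (F0) were injected in late pregnancy with dihydrotestosterone, an androgen that cannot be converted to oestrogen, or with the oil vehicle alone. Their sons (F1), exposed in the womb and given no treatment after birth, were bred with wild-type females. The islets of the resulting F2 males gave the groups control-F2 and AE-F2, AE standing for androgen exposure. The sample titles call the AE-F2 group HA, the study's abbreviation for hyperandrogenism. Neither F2 group was itself injected, both are genetically unmodified, and the age of the males at the time of islet isolation was not given in the sources used here. Islets are clusters of hormone cells that also hold endothelium, pericytes and resident immune cells. They were released with collagenase, separated from exocrine tissue on a density gradient and picked by hand, and for the study in general they were kept in RPMI-1640 medium. The labels map 3 samples to control-F2 and 4 to AE-F2. Counts of 1 library per group were analysed, control-F2 replicate 1 and AE-F2 replicate 4, and the other 5 libraries were not analysed here. There is therefore no replicate check on any value in this text. No test was made and no p-value was computed, and the intervals given cover counting error in these libraries and not the spread between animals.

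Most adult β-cells are out of the cell cycle, and new ones arise mainly by slow division of existing β-cells. In G1, cyclin D with its kinases and then cyclin E with Cdk2 inactivate the retinoblastoma protein and free the E2F factors, which switch on the genes of DNA replication. A later wave of genes for mitosis is held back in resting cells by the DREAM complex and driven in G2 by B-Myb and Foxm1. Because their messages rise and fall with the cycle, the levels of these genes in bulk tissue are widely read as a measure of how many cells are dividing. In bulk RNA, however, fewer cells of a type and less RNA per cell cannot be told apart.

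The control-F2 library held 16285876 counts and the AE-F2 library 21278503, so the libraries were scaled with TMM factors, which set the bulk of genes to equality. Each ratio sets AE-F2 over control-F2 on the log2 scale after adding 0.5 to the scaled counts, and each interval is a 95% Clopper-Pearson counting interval. Of the 40 genes, 38 had a mean of at least 10 counts, as did 13627 genes in all. Ttk and Birc5 did not, and their values are given apart. The mean is of unscaled counts over both libraries, so a gene under 10 counts in control-F2 could pass through its AE-F2 count. Cdc6, Aurkb and Bub1, each with 9 counts in control-F2, passed in this way. The β-cell identity of the tissue was plain, with the 9 β-cell markers at a summed 202250 CPM in control-F2 and 202480 in AE-F2, CPM being counts scaled to the same library size. Ratios of scarce genes leaned toward AE-F2 across the whole transcriptome. The median log2 ratio was -0.0009 over all 13627 genes, 0.16 over the 3087 genes with a mean of 10 to 100 counts, and -0.01 over the 7069 genes with 100 to 1000. Most of the 40 genes are scarce, so their counts are set beside those of genes in the same range.

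The 38 genes had a median log2 ratio of 0.52, and 36 of them were higher in AE-F2, where 49.8% of all tested genes were. Past 2-fold higher were 9 of the 38, against 3.18% of all tested genes, and none was past 2-fold lower, against 0.653%. With the threshold at 1.5-fold, 16 were past it, against 6.21%. The counting interval lay above equality for 19 genes, against 13.2% of all tested genes, and below equality for 1, Ccne1, against 13.7%. Among the 27 members with a mean of 10 to 100 counts, the median was 0.57, 25 were higher in AE-F2 and 6 were past 2-fold. Of all genes in that range 61.6% were higher and 13.1% were past 2-fold. Among the 11 members with 100 to 1000 counts, the median was 0.48, all 11 were higher and 3 (Gins2, Mki67 and Top2a) were past 2-fold, against 47.9% and 0.396% of all genes in that range. The genes were chosen from this same contrast, so nothing is read from these shares. As a summed level, the 40 genes had 180 CPM in control-F2 and 248 CPM in AE-F2, a ratio of 1.38 (interval 1.31 to 1.44).

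**Figure D1:**
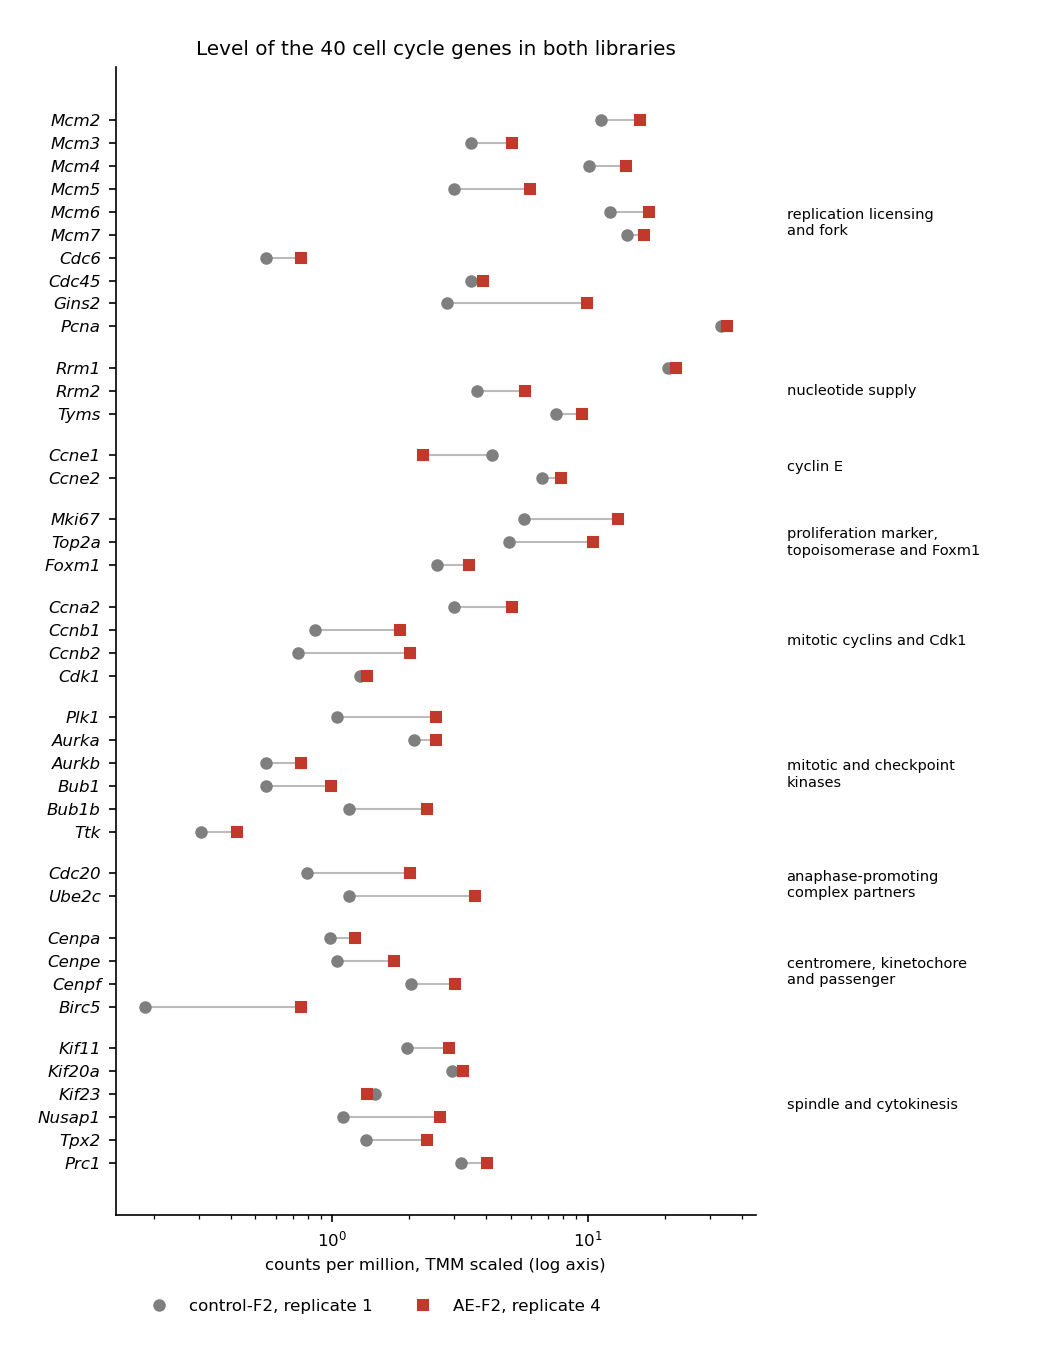
Level of each of the 40 genes in both libraries, in TMM-scaled CPM on a log axis, with genes grouped by role; circles are control-F2 replicate 1 and squares AE-F2 replicate 4. The square lies to the right of the circle for 38 of the 40 genes, and Ccne1 and Kif23 are the exceptions.

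The S phase genes were the more abundant class and the one with the smaller ratios. Their summed counts were 2235 in control-F2 and 3659 in AE-F2, or 137 and 172 CPM, a ratio of 1.25 (1.19 to 1.32). Pcna, the sliding clamp that tethers DNA polymerases and that is also used in DNA repair, had 544 and 745 counts and a log2 ratio of 0.07 (interval -0.09 to 0.23). Without Pcna the summed ratio was 1.32 (1.24 to 1.40). Over the 15 genes the median log2 ratio was 0.43, with 14 higher in AE-F2, 1 lower, 1 past 2-fold and 8 with an interval above equality. The shares over all tested genes were 49.8% higher, 3.18% past 2-fold and 13.2% with an interval above equality.

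Mcm2 to Mcm7 are the 6 subunits of the replicative helicase, which is loaded on origins in G1 and unwinds DNA in S phase. Their summed counts were 885 in control-F2 and 1597 in AE-F2, a ratio of 1.38 (1.27 to 1.5). Mcm2 had 183 and 341 counts (log2 ratio 0.51, interval 0.25 to 0.78). Mcm4 had 165 and 301 (0.48, 0.21 to 0.77) and Mcm6 had 199 and 368 (0.50, 0.25 to 0.76), so these 3 well-counted subunits stood close together. The scarcer Mcm3 had 57 and 107 counts, also with a ratio of 0.52 (0.05 to 1.02). Mcm5 had the largest ratio of the 6, with 49 and 126 counts (0.97, 0.49 to 1.49), and Mcm7 the smallest, with 232 and 354 (0.23, -0.02 to 0.47). The intervals of Mcm5 and Mcm7 did not overlap. Exons of Mcm7 share 321 bases with Ap4m1 and 64 with Cops6, both on the opposite strand, and whether the counting used strand was not given in the sources used here. In the RefSeq promoter table (GRCm38.p6), Mcm3, Mcm5, Mcm6 and Mcm7 carry E2F-type sites, the element through which E2F factors switch on replication genes. The 160 bases before the start sites of Mcm5 and Mcm6 are given to show them, 5′ to 3′ on the coding strand. Capitals mark E2F sites (TTTGGCGC, TTTGCCGC, TTTCGCGC or TTTCCCGC) and CCAAT boxes (CCAAT), read on either strand, and sites that overlap run together.
Mcm5 promoter, chr8:75109349-75109508, plus strand: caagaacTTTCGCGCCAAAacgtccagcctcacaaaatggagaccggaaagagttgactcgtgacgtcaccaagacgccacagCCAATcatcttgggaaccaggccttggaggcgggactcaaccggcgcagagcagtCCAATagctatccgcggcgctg
Mcm6 promoter, chr1:128359706-128359865, minus strand: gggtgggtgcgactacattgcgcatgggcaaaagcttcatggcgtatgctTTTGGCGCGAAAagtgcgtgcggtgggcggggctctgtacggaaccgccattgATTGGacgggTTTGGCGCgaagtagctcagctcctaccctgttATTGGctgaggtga
In both promoters an E2F match on one strand overlaps a match on the other, and both also hold a pair of CCAAT boxes.

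The remaining genes of origin firing and the fork were uneven. Gins2 encodes a subunit of GINS, the complex that joins Cdc45 and the Mcm helicase to make the active unwinding machine. It had 46 counts in control-F2 and 211 in AE-F2, a log2 ratio of 1.80 (1.35 to 2.31), and only 0.170% of genes with 100 to 1000 counts had a higher one. The other GINS subunits, chosen after their values were seen, were close to equality or barely counted. Gins3 had 54 and 79 counts (0.16, -0.35 to 0.69) and Gins4 had 142 and 209 (0.17, -0.14 to 0.49). Gins1 had 3 and 2 counts. Gins2 shares 2758 exon bases with Gse1 on the opposite strand in the GENCODE M21 annotation (GRCm38). Gse1 had 3453 and 3713 counts and a log2 ratio of -0.28 (-0.35 to -0.21), and the part of the overlap in the Gins2 counts was not tested. Cdc45 itself had 57 and 83 counts (0.16, -0.35 to 0.67). Cdc6, which loads the helicase on origins, had 9 and 16 counts (0.43, -0.82 to 1.81), too few for a direction.

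Among the enzymes of nucleotide supply, Rrm1 and Rrm2 are the subunits of ribonucleotide reductase, Rrm1 being long lived and Rrm2 being made in S phase and destroyed after it. Rrm1 had 335 and 470 counts (0.10, -0.10 to 0.31). Rrm2 had 60 and 121 (0.62, 0.17 to 1.10), so the subunit tied to S phase was the one whose interval lay above equality, although the intervals of both overlapped. Tyms, the thymidylate synthase, had 122 and 201 counts (0.34, 0.01 to 0.67). The summed ratio of these 3 genes was 1.17 (1.05 to 1.31).

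The cyclins E, which start S phase with Cdk2, split. Ccne1 had 69 counts in control-F2 and 48 in AE-F2, a log2 ratio of -0.90 (-1.47 to -0.35), and 97.0% of genes with 10 to 100 counts had a higher one. Ccne2 had 108 and 167 counts (0.24, -0.11 to 0.61). The intervals did not overlap, and the sum of both cyclins had a ratio of 0.93 (0.76 to 1.14). Exons of Ccne2 share 609 bases with the opposite-strand gene Ints8, which had 587 and 763 counts. Ccne1 was the only 1 of the 40 genes with an interval below equality in these libraries.

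The mitosis genes were scarcer, with 700 counts in all in control-F2 and 1609 in AE-F2, or 42.9 and 75.7 CPM, a ratio of 1.76 (1.61 to 1.93). The interval lies wholly above that of the summed S phase genes. Their median log2 ratio over 23 genes was 0.74, with 22 higher in AE-F2, 1 lower, 8 past 2-fold and 11 with an interval above equality. Of these genes 21 had 10 to 100 counts, a range in which 61.6% of all genes were higher and 13.1% past 2-fold, and over all tested genes 13.2% had an interval above equality. The mitosis median exceeded the S phase median by 0.31. At a minimum mean of 50 counts this gap was 0.16, with only Mki67, Top2a, Foxm1, Ccna2, Kif20a and Prc1 left of the mitosis genes. It was 0.13 once the trend of the ratio with mean count over all genes was removed. The gap was thus smaller in settings that leave out or level the scarce genes. Within the range of 10 to 100 counts, the median was 0.72 for 21 mitosis genes and 0.48 for 6 S phase genes.

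**Figure D2:**
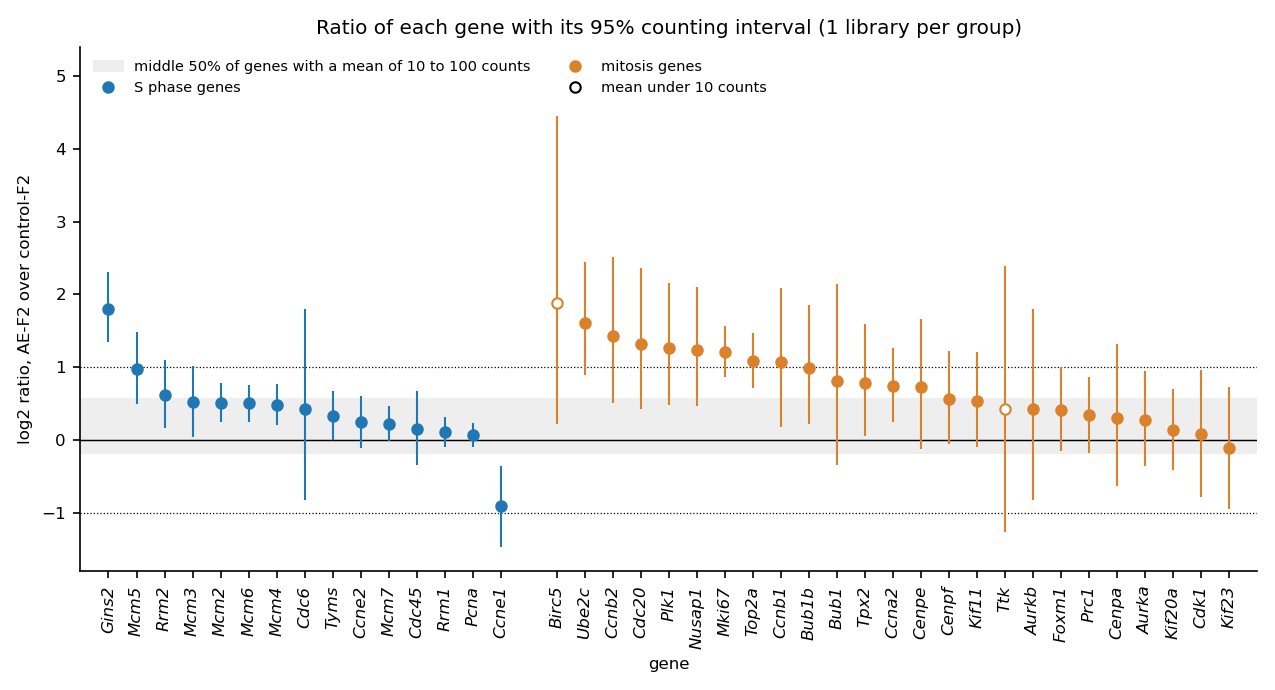
Log2 ratio, AE-F2 against control-F2, of each gene (points) with its 95% counting interval (bars), S phase genes at the left and mitosis genes at the right; the grey band holds the middle 50% of all genes with a mean of 10 to 100 counts, dotted lines mark 2-fold, and open points are genes with a mean under 10 counts. Gins2 at 1.80 and Ccne1 at -0.90 stand at the ends of the S phase genes, and 8 filled mitosis points lie above the upper dotted line.

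Mki67, the chromosome coat protein whose antigen Ki-67 is the usual stain for dividing cells, had 92 counts in control-F2 and 278 in AE-F2, a log2 ratio of 1.21 (0.87 to 1.57). Top2a, the topoisomerase that untangles sister chromosomes, had 80 and 222 counts (1.08, 0.71 to 1.48). These were the best counted genes of the mitosis class, and only 0.255% and 0.283% of genes with 100 to 1000 counts had a higher ratio. Foxm1, the factor that drives many genes of G2 and mitosis, had 42 and 73 counts (0.41, -0.15 to 1.00), and its interval included equality.

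Of the mitotic cyclins, Ccna2, which acts from S phase into early mitosis, had 49 and 107 counts (0.74, 0.24 to 1.26). Its exons share 510 bases with the opposite-strand gene Exosc9, which had 366 and 480 counts. The B cyclins, which drive entry into mitosis, were nearer the foot of the scale. Ccnb1 had 14 and 39 counts (1.07, 0.18 to 2.09) and Ccnb2 had 12 and 43 (1.43, 0.51 to 2.52). Cdk1, the kinase that all 3 cyclins activate, had 21 and 29 counts and a ratio near equality (0.08, -0.78 to 0.97). The cyclins were thus each higher in AE-F2 by their intervals while their kinase was not, with all 4 intervals overlapping.

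Plk1 and the Aurora kinases build and orient the spindle, and Bub1, Bub1b and Ttk belong to the checkpoint that holds cells until every chromosome is attached. Plk1 had 17 and 54 counts (1.26, 0.48 to 2.16). Bub1b had 19 and 50 counts (0.996, 0.22 to 1.86), just under 2-fold on this scale. The other 4 kinases had intervals that included equality. Aurka had 34 and 54 counts (0.28, -0.36 to 0.95), Aurkb had 9 and 16 (0.43, -0.82 to 1.81) and Bub1 had 9 and 21 (0.81, -0.35 to 2.15). Ttk, with 5 and 9 counts, did not reach the minimum.

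The anaphase-promoting complex tags cyclin B and securin for destruction and so ends mitosis. Its activator Cdc20 had 13 and 43 counts (1.31, 0.42 to 2.36), and Ube2c, the ubiquitin-conjugating enzyme that works with it, had 19 and 77 (1.61, 0.90 to 2.44). Ube2c had the largest ratio of the mitosis genes that reached the minimum. Even so, 6.61% of all genes with 10 to 100 counts had a higher one. Summed, this pair had 32 and 120 counts, a ratio of 2.87 (1.93 to 4.39). Exons of Ube2c share 592 bases with Tnnc2, which had 1 and 0 counts, and those of Cdc20 share 53 with Elovl1, which had 386 and 445.

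At the centromere, Cenpa, the histone variant that marks it, had 16 and 26 counts (0.31, -0.64 to 1.31). Cenpe, a kinetochore motor, had 17 and 37 (0.72, -0.13 to 1.66), and Cenpf, a large kinetochore protein, had 33 and 64 (0.57, -0.06 to 1.22). None of these 3 intervals excluded equality. Birc5, or survivin, the chromosomal passenger protein that carries Aurora B to the centromere, had 3 counts in control-F2 and 16 in AE-F2. That is a ratio of 4.09 with a counting interval of 1.17 to 21.9, and its mean was under the minimum.

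The genes of the spindle and of cell separation were mixed. Nusap1, a protein that bundles spindle microtubules, had 18 and 56 counts (1.23, 0.47 to 2.11). Tpx2, which activates Aurora A on the spindle, had 22 and 50 (0.79, 0.05 to 1.60). The motor Kif11, which pushes the spindle poles apart, had 32 and 61 (0.54, -0.09 to 1.21). The intervals of the 3 genes of the central spindle and cytokinesis also included equality. Prc1 had 52 and 86 counts (0.34, -0.17 to 0.87), Kif20a had 48 and 69 (0.14, -0.41 to 0.70), and Kif23 had 24 and 29 (-0.11, -0.94 to 0.73). Kif20a shares 1271 exon bases with Cdc23, and Prc1 shares 911 with Rccd1, on the opposite strand in each case.

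Exons of 11 of the 40 genes overlap those of another protein-coding gene in GENCODE M21, and 4 of these (Gins2, Cdc20, Ube2c and Nusap1) are among the 9 past 2-fold. Without the 11, 27 genes reached the minimum, their median log2 ratio was 0.52, and 5 were past 2-fold. These were Mki67, Top2a, Ccnb1, Ccnb2 and Plk1.

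On a scale per length (CPM per kilobase of transcript), the order of the levels was alike in both libraries at its top. Pcna led with 22.0 in control-F2 and 23.1 in AE-F2, followed by Mcm7 with 6.60 and 7.72, Rrm1 with 5.14 and 5.53, Mcm6 with 3.36 and 4.76, and Mcm2 with 3.33 and 4.76. Mcm6 and Mcm2 stood at nearly the same level in each library. Birc5 was lowest in control-F2 at 0.086 CPM per kilobase. Gins2 moved from place 22 of the 40 in control-F2 to place 10 in AE-F2, and Ube2c from 21 to 11. Ccne1 moved the other way, from place 9 to place 23. The first 8 places were held by the same S phase genes in the same order in both libraries, with Mcm4, Tyms and Ccne2 in places 6 to 8.

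Control of the mitosis genes runs through a short element, the cell cycle homology region (CHR, TTTGAA or TTTAAA), to which the DREAM complex and later B-Myb and Foxm1 bind, usually with CCAAT boxes for the factor NF-Y nearby. The RefSeq table holds a promoter, 250 bases before to 50 after the start, for 32 of the 40 genes. For 31 of 34 promoters of these genes the last 20 bases were found in a transcript of the gene. To show the pair of elements, the 160 bases before the start site are given for 5 mitosis genes past 2-fold and for Kif11, which was not past it. Capitals mark CHR and CCAAT matches on either strand, 5′ to 3′ on the coding strand.
Ccnb1 promoter, chr13:100786487-100786646, minus strand: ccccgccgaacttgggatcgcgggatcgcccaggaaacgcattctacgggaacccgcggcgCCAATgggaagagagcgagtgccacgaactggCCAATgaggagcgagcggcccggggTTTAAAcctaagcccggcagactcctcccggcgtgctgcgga
Plk1 promoter, chr7:122159275-122159434, plus strand: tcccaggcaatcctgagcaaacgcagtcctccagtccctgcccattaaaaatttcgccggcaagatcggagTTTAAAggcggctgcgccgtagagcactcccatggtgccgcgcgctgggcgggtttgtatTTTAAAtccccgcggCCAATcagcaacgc
Cdc20 promoter, chr4:118437344-118437503, minus strand: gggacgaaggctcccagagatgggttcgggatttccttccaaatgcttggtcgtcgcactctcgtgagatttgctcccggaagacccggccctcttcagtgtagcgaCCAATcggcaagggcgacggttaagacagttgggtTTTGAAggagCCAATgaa
Ube2c promoter, chr2:164769769-164769928, plus strand: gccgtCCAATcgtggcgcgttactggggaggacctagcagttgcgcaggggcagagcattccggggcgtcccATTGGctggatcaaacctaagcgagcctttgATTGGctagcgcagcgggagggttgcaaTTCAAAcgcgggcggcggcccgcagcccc
Top2a promoter, chr11:99024190-99024349, minus strand: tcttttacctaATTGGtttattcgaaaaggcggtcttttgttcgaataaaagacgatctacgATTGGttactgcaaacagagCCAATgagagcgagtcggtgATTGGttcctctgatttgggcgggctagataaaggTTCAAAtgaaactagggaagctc
Kif11 promoter, chr19:37376222-37376381, plus strand: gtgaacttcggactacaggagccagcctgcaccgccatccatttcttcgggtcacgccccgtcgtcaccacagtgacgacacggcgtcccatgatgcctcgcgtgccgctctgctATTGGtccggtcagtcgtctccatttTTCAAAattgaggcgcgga
In Ccnb1, Ube2c, Top2a and Kif11 the CHR lies between the nearest CCAAT box and the start site. In Cdc20 and Plk1 a CCAAT box lies between the CHR and the start site.

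Of 20 mitosis genes with a promoter in the table, 18 (90%) had a CHR, 18 had a CCAAT box and 17 (85%) had both. Of 12 S phase genes, 5 (41.7%) had a CHR, 9 (75%) a CCAAT box and 4 (33.3%) both. Over all 27025 genes in the table the shares were 30.6% with a CHR, 41.1% with a CCAAT box and 13.4% with both, and over the 10637 tested genes with a promoter they were 22.5%, 42.5% and 10.5%. The E2F site was distributed the other way, in 5 of 12 S phase genes (41.7%; Cdc6, Mcm3, Mcm5, Mcm6 and Mcm7), in 1 of 20 mitosis genes (5%; Cdk1), in 2.6% of all promoters and in 4.55% of those of tested genes. Mitosis genes with the pair spanned the whole range of ratios of the tested mitosis genes in the table, from Kif23 at -0.11 to Ube2c at 1.61. The 3 mitosis genes without the pair were Birc5, Bub1 and Nusap1, and Nusap1 had no match to any of the 3 elements in this window. Over all tested genes with a promoter in the table, 4.22% of those with both CCAAT and CHR were past 2-fold higher and 2.58% of those without the pair. For the E2F site the shares were 2.27% with it and 2.78% without. Among tested genes with 10 to 100 counts, the 287 with both CCAAT and CHR had a median log2 ratio of 0.19 with 14.6% past 2-fold, and the 1981 with a promoter but without the pair had 0.15 and 11.7%. A match is a string of letters and was not tested as a binding site.

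**Figure D3:**
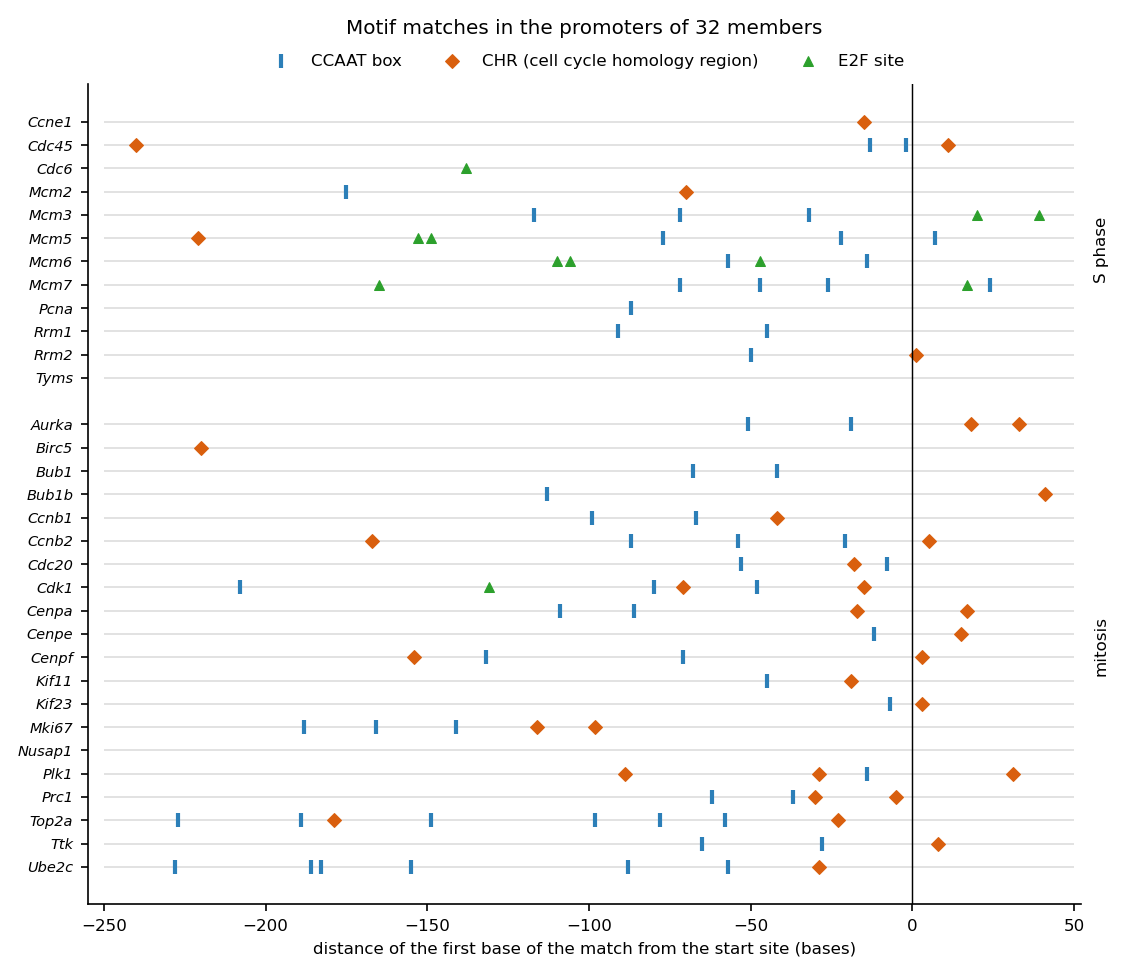
Positions of CCAAT boxes (bars), CHR matches (diamonds) and E2F sites (triangles) in the promoters of 32 of the genes, as the distance in bases of the first base of the match from the start site, S phase genes above and mitosis genes beneath. CHR matches occur in 18 of 20 mitosis genes, while E2F sites occur in 5 of 12 S phase genes and 1 mitosis gene.

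Other genes of the same processes had smaller medians, again lower for DNA replication than for mitosis. By summed counts the lists did not keep that order, and the mitosis sum is mostly a few abundant genes near equality. The lists were chosen with earlier results of these libraries known. Of 57 other DNA replication genes, 52 reached the minimum, with a median log2 ratio of 0.18. Of these 41 were higher, 11 lower and 5 past 2-fold, and 12 intervals lay above equality and 0 below. Over all tested genes 49.8% were higher, 3.18% were past 2-fold and 13.2% had an interval above equality, and of genes with 10 to 100 counts, the range of those 5, 13.1% were past 2-fold. The ratio of the summed counts was 1.08 (1.05 to 1.11). The most abundant ones were close to equality: Rpa1, of the single-strand binding protein, had 1782 and 2402 counts (0.05, -0.04 to 0.14), and Orc3, of the origin recognition complex, had 634 and 841 (0.02, -0.13 to 0.18). Hells, a chromatin remodeller, and Uhrf1, which copies DNA methylation after the fork, were among those past 2-fold and were chosen after their values were seen. Hells had 18 and 61 counts (1.36, 0.60 to 2.22) and Uhrf1 had 10 and 44 (1.71, 0.74 to 2.91).

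Of 81 other mitosis genes, 68 reached the minimum, with a median of 0.48, 60 higher, 8 lower and 15 past 2-fold. Of the 68, the interval lay above equality for 23 and below it for 2, against 13.2% and 13.7% of all tested genes. Most of these genes had 10 to 100 counts, a range in which 61.6% of all genes were higher and 13.1% past 2-fold. Each of the 15 past 2-fold had between 3 and 53 counts in either library. Most of the 15 were under 10 counts in control-F2 and reached the minimum through their AE-F2 counts. The largest ratio belonged to Kif2c, a microtubule-depolymerising motor at the kinetochore chosen after its values were seen, with 3 and 25 counts (2.51, 0.96 to 5.05). The summed level of this list was dominated by 4 abundant genes near equality. Spc25, of the Ndc80 complex, had 6634 and 9325 counts (0.11, 0.06 to 0.15). The other subunits of that complex, chosen after their values were seen, were far scarcer. Ndc80 had 10 and 29 counts, Nuf2 had 11 and 22, and Spc24 had 23 and 32. The level of Spc25 is thus out of proportion to its complex, and its overlap with other genes was not examined. Tubb4b, a tubulin that is not special to mitosis, had 2317 and 2578 (-0.23, -0.31 to -0.15). Zwint, of the kinetochore, had 1563 and 2274 (0.16, 0.06 to 0.25), and Ckap5, a microtubule polymerase, had 1496 and 1892 (-0.05, -0.14 to 0.05). The ratio of the summed counts was accordingly 1.06 (1.04 to 1.08).

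The lists of regulators upstream of S phase had medians close to equality, with members on both sides. The 19 genes of the E2F, Rb and DREAM list had a median of 0.07, with 13 higher, 6 lower and none past 2-fold. Among all tested genes 49.8% were higher and 3.18% past 2-fold higher. Rb1, the retinoblastoma gene, had 777 and 1008 counts (-0.01, -0.14 to 0.13). The intervals of 2 genes of this list, chosen after their values were seen, excluded equality in opposite directions. Of all tested genes 13.2% had an interval above equality and 13.7% below. E2f1 had 237 and 235 counts (-0.39, -0.66 to -0.13), and E2f2, also an activating E2F factor, had 72 and 151 (0.68, 0.27 to 1.11). The 9 G1 cyclins and kinases had a median of 0.08 and a summed ratio of 0.92 (0.91 to 0.94). That sum is mostly Ccnd2, the main D cyclin of β-cells, with 20824 and 24261 counts and a log2 ratio of -0.16 (-0.19 to -0.14). Ccnd1 had 3402 and 4679 (0.08, 0.01 to 0.14), Cdk4 had 1601 and 2263 (0.12, 0.02 to 0.21), and Ccnd3 had 718 and 760 (-0.30, -0.45 to -0.15). Myc, a factor that drives entry into the cycle and that was chosen after its values were seen, had 220 and 201 (-0.51, -0.80 to -0.23). The intervals thus lay above equality for Ccnd1 and Cdk4 and below it for Ccnd2, Ccnd3 and Myc. Those sides held 13.2% and 13.7% of all tested genes.

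Of the 7 inhibitors of cyclin-dependent kinases, which hold cells in G1, 5 were lower in AE-F2 and 2 higher, with a median of -0.22, where 49.8% of all tested genes were higher. Cdkn1b, encoding p27, had 1621 and 1999 counts (-0.08, -0.18 to 0.01). Cdkn1a, encoding p21, the target of p53, had 555 and 500 (-0.53, -0.71 to -0.36) and was the 1 inhibitor with an interval below equality, a side on which 13.7% of all tested genes lay. Cdkn1c, encoding p57 and chosen after its values were seen, had 33 and 67 (0.63, 0.02 to 1.29) and was the 1 with an interval above it. Cdkn2c had 148 and 159 counts (-0.28, -0.61 to 0.05) and Cdkn2d had 147 and 164 (-0.22, -0.56 to 0.11). The 12 tested genes of β-cell growth signalling had a median of 0.03. Among them, Prlr, the prolactin receptor through which pregnancy expands β-cells, had 6804 and 8977 counts (0.02, -0.03 to 0.06).

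**Figure D4:**
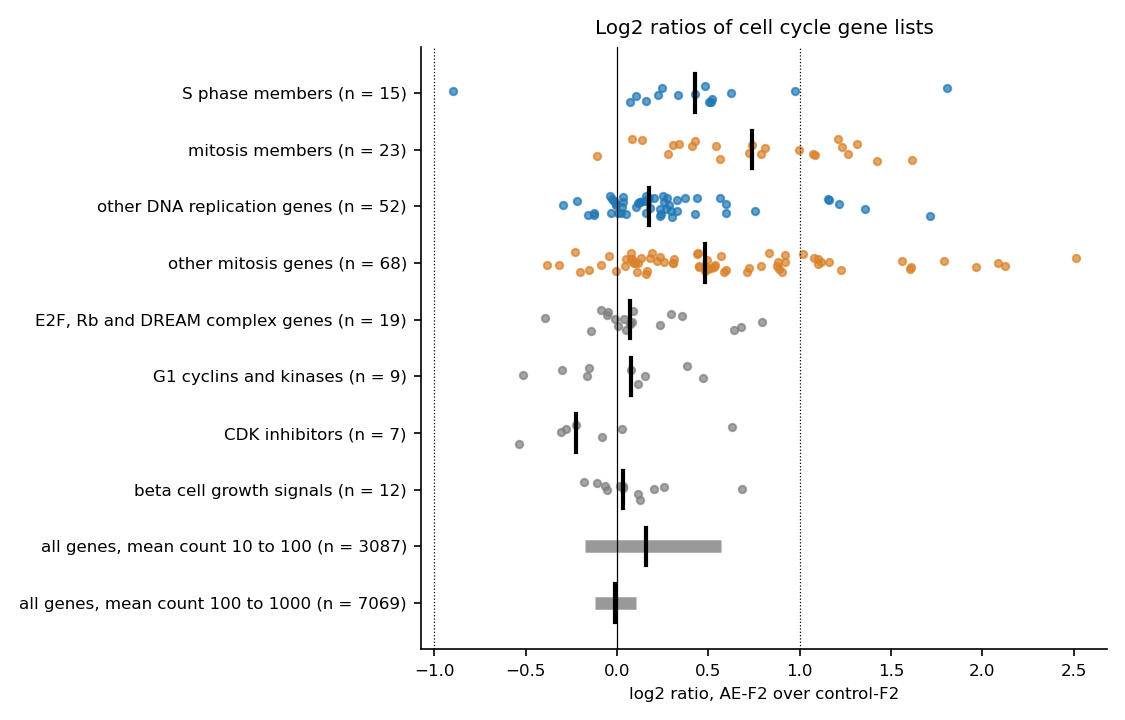
Log2 ratio, AE-F2 against control-F2, of each gene with a mean of at least 10 counts (points, spread vertically for legibility) in the 40-gene set and in 6 further cell cycle lists, with black bars at the medians; grey bars hold the middle 50% of all genes in 2 ranges of mean count and dotted lines mark 2-fold. The medians are 0.43 and 0.74 for the S phase and mitosis members, 0.18 and 0.48 for the other replication and mitosis genes, and between -0.22 and 0.08 for the remaining lists.

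The libraries also differed in messages of other cell types, some of which divide. The 12 B cell markers had a summed level of 14.8 CPM in control-F2 and 305 CPM in AE-F2, a ratio of 20.6 (18.1 to 23.5). In control-F2, 10 of the 12 had at most 3 counts and 4 (Ighd, Cxcr5, Cr2 and Blk) had 0. Most of the control-F2 sum is Cd79a, a chain of the B cell receptor, with 178 counts against 391 in AE-F2 (log2 ratio 0.75, interval 0.49 to 1.02). Most of the AE-F2 sum is Ighm, the heavy chain of IgM, with 5376 counts against 51 in control-F2, and Ms4a1, encoding CD20, had 150 against 3. The 7 markers of germinal centre B cells, the dividing stage, had 8.65 and 7.05 CPM in all (0.82, 0.64 to 1.03), and only 2 of them, Bcl6 and S1pr2, reached the minimum. The sum is mostly Bcl6, a factor also made in other cells, with 133 and 90 counts (-0.94, -1.35 to -0.55). S1pr2 had 6 and 33 counts (2.0, 0.80 to 3.62). Of the scarcer germinal centre genes, Rgs13 had 0 counts in control-F2 and 6 in AE-F2, and Gcsam had 0 and 8.

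The 9 T cell markers had 1.10 and 9.12 CPM in all (8.26, 5.09 to 14.2), and 5 of them (Cd3d, Cd3e, Cd3g, Cd8b1 and Cd28) were at 0 in control-F2. The 8 plasma cell markers had 27.8 and 54.5 CPM (1.96, 1.76 to 2.19). Most of the control-F2 sum is Prdm1, with 209 counts against 236 in AE-F2 (-0.21, -0.48 to 0.07), and Derl3, with 191 against 221 (-0.17, -0.46 to 0.11). Neither of them is special to plasma cells. Tnfrsf17, a defining marker, had 0 counts in both libraries. Jchain, the joining chain of secreted antibodies, had 6 and 347 counts and was the largest part of the AE-F2 sum. Irf4 had 1 and 74 counts, and Pou2af1 had 0 and 139. All 10 fibroblast and pericyte markers were higher in AE-F2, where 49.8% of all tested genes and 61.6% of those with 10 to 100 counts were, with a median log2 ratio of 1.01 and a summed ratio of 1.25 (1.20 to 1.30). The pericyte gene Rgs5, the most abundant of the list, had 2776 and 3835 counts (0.08, 0.01 to 0.15), and Pdgfrb had 406 and 549 (0.05, -0.14 to 0.24). The collagen genes had larger ratios, Col3a1 with 282 and 727 counts (0.98, 0.78 to 1.19) and Col1a2 with 228 and 577 (0.95, 0.73 to 1.18). The erythroid list, mostly globin messages, had a summed ratio of 1.39 (1.28 to 1.5), with Klf1 and Gata1 at no more than 4 counts in either library. Of 8 macrophage markers 4 were higher and 4 lower, with a median log2 ratio of -0.04. Their summed ratio of 1.19 rests on Lyz2, with 112 and 571 counts, while C1qa had 592 and 647 (-0.26, -0.42 to -0.09). The summed ratio was 1.15 for duct markers, 0.99 for endothelial markers and 0.75 for acinar markers. Endocrine markers were not all level either. The summed ratio of α- and δ-cell markers was 1.30 (1.30 to 1.31), a sum made mostly of Gcg, the glucagon gene, at 0.46 on the log2 scale (0.45 to 0.46). The median of the 6 was 0.14. The δ-cell genes Sst (-0.01, -0.03 to 0.01) and Hhex (0.003, -0.26 to 0.27) were near equality. For β-cell markers the summed ratio was 1.00, a sum made mostly of the insulin genes and Iapp, and the median was -0.10 on the log2 scale. By their intervals 7 of the 9 were lower and 2 higher, against 13.7% and 13.2% of all tested genes. These genes are abundant, so their intervals excluded equality even at small ratios, such as -0.05 for Ins2. The part of B cells, T cells and fibroblasts in the ratios of the cell cycle genes was not tested, and in bulk libraries the cells that carried these messages cannot be told apart.

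**Figure D5:**
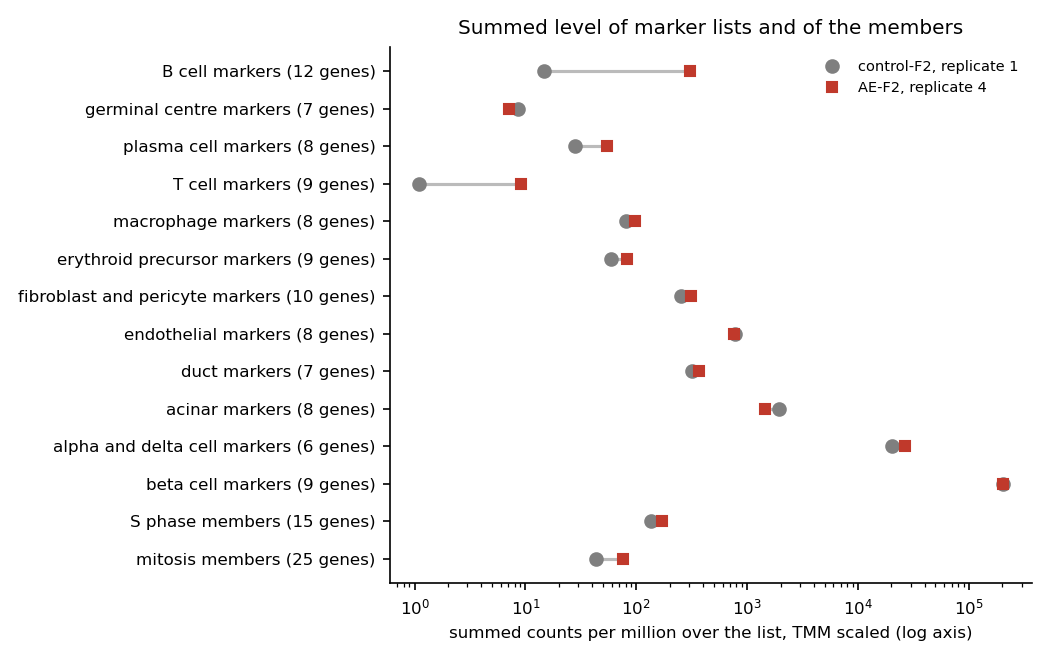
Summed level of each cell type marker list and of the S phase and mitosis genes, in TMM-scaled CPM on a log axis; circles are control-F2 replicate 1 and squares AE-F2 replicate 4. The widest gaps are those of B cell markers (14.8 and 305 CPM) and T cell markers (1.10 and 9.12 CPM), while the mitosis genes have 42.9 and 75.7 CPM.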

How the data were processed

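Islet mRNA was enriched with oligo(dT), made into libraries with a NEBNext Ultra kit and sequenced on an Illumina NovaSeq. The authors deposited expected counts per gene, 1 file per library, with no scaling for depth or length. The study's methods name HISAT2 for alignment, while the submitters' processing notes list Bowtie2, RSEM and DESeq2. The genome build, the gene annotation and the strand setting were not given in the sources used here. Of the values, 8.56% in control-F2 and 9.28% in AE-F2 were not whole, as happens when reads shared between genes are divided, and all were rounded. Among the 40 genes, 7 had a count that was not whole.

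Of the 21899 identifiers, 21806 matched a symbol in GENCODE M21 (GRCm38). The share of counts in the remaining 93 was 0.0531% for control-F2 and 0.0497% for AE-F2. Scaling used TMM factors (edgeR 4.0.16 under R 4.3.3). A minimum mean of 10 counts left 13627 genes. The log2 ratio used a pseudocount of 0.5 scaled counts, so it understates the ratio of scarce genes. Intervals were computed with scipy 1.17.1 (Python 3.11.15) from the part of a gene's counts found in AE-F2. PCR copies are not independent molecules, so intervals cover counting error only. Levels per length used the median length of protein-coding transcripts in the basic set of GENCODE M21, and exon overlaps used the same annotation, which may not be the one the authors counted with. Promoters were from RefSeq (GRCm38.p6). Figures were drawn with matplotlib 3.10.9. The calculation was tested on simulated data.

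The 40 genes, their division into S phase and mitosis, and the pathway and marker lists were chosen with earlier results of these data known. All 40 could be named. Of each further list, up to 4 genes with the highest mean count were eligible, as were defining markers with at most 3 counts in a library, and other genes are said to have been chosen after their values were seen. Lin54 of the DREAM list was not analysed here. The values of some marker genes are not reported here. No statistical model was fitted, since each group had 1 library.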

Additional observations from a re-analysis of the deposited data

How the results depend on the processing

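With 1 library per group, leaving out a replicate could not be tried. No paired analysis was possible because each group had 1 library. Over all settings the median log2 ratio ranged from 0.43 to 0.57 for the 40 genes, from 0.32 to 0.48 for the S phase genes and from 0.45 to 0.76 for the mitosis genes, and mitosis minus S phase from 0.13 to 0.40. No sign of these was turned. At a minimum mean of 50 counts, which left 20 genes, the medians were 0.45 for all and 0.57 for mitosis, with 3 past 2-fold against 0.702% of genes tested there. The S phase median was 0.33 with a pseudocount of 5 and 0.34 with AE-F2 thinned to the control-F2 total. At 1.5-fold, 16 genes were past the threshold. A further 2 settings were chosen after seeing the data. With the trend of the ratio on mean count removed, the medians were 0.43 for all, 0.32 for S phase and 0.45 for mitosis, a gap of 0.13. Without the genes that overlap another, 5 were past 2-fold. Mitosis minus S phase was 0.16 at a minimum mean of 50 counts and 0.40 with AE-F2 thinned. The other scalings, unrounded counts and removal of trends with GC content and length gave 9 to 11 genes past 2-fold. All 360 recomputed ratios of single genes stayed within their counting interval, but those of Aurkb, Cdc6, Cdk1, Cenpa and Ttk changed sign under some setting. Depth limits the mitosis genes most: many had under 20 counts in control-F2, and no value carries the spread between animals.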
